A study of Mus musculus with 6 samples.

Results

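The genes that encode the MHC class II antigen presentation machinery were examined in tuft-like and non-tuft-like medullary thymic epithelial cells (mTEC). The set was a list of 10 genes, namely H2-Aa, H2-Ab1, H2-Eb1, H2-DMa, H2-DMb1, H2-DMb2, H2-Oa, H2-Ob, Cd74 and Ciita, which were found by symbol among the 52636 gene rows of the count table. All 10 were present and all 10 passed the filter on low counts. Bulk RNAseq had been made from thymus of C57BL/6 mice at 6 weeks of age, with 3 libraries of each population. Both populations had been sorted as positive for the lectin UEA1, low for surface MHCII, low or negative for CD80 and negative for Sca1 and CD63. The paper gives CD80 as low for tuft-like mTEC. Tuft-like mTEC were in addition positive for CD117 and CD66a, whereas non-tuft-like mTEC were negative for both. Class II protein was therefore itself part of the gate, which set the same low window for both populations, and the values below concern the transcripts of cells inside that window. The paper regards the non-tuft-like cells as a likely mixture, because their expression profile matched no known mTEC subpopulation. Neither the labels nor the methods state how many mice each library came from, so the p-values measure the spread between these libraries, which may be technical.

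MHC class II molecules present peptides from endocytosed and autophagocytosed proteins to CD4 T cells, and in the thymus medulla this contributes to the removal of self-reactive thymocytes and to the selection of regulatory T cells. The alpha and beta chains assemble on the invariant chain, which fills the groove until proteases trim it, after which H2-DM exchanges the remaining fragment for peptide and H2-O restrains H2-DM. Transcription of these genes depends on Ciita, a co-activator that does not bind DNA itself but is recruited by the factors sitting on the X and Y boxes shared by class II promoters.

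The reads per library assigned to genes ranged from 20097617 to 48369825, so that 3 counts, the limit a count of 0 allows, corresponded to between 0.0639 and 0.124 CPM (counts scaled to library size with TMM factors; this limit covers counting error only). Reads assigned to no gene made up 34.4% to 52.5% of the table in the non-tuft-like libraries and 19.7% to 61.6% in the tuft-like libraries, where replicate 3 had the lowest share and replicate 1 the highest. The 8 tuft genes of a marker list (Dclk1, Trpm5, Pou2f3, Il25, Avil, Gnat3, Il17rb and Gfi1b) were all called higher in tuft-like mTEC (median 4.21 on the log2 scale). Of 7 thymic epithelial markers, the keratin gene Krt14 and the epithelial regulator Foxn1 were called lower. At an unadjusted p under 0.05, 4 were lower, and DESeq2 called 3 lower. Krt5, another keratin gene, had means of 338 and 41.6 CPM but was not called (edgeR, adjusted p = 0.0985). Summed levels of the list overlapped between the groups (3977 to 4459 CPM against 3062 to 7148 CPM). The largest part of these sums was Krt8, with means of 2465 and 3924 CPM.

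Letters like those of the X and Y boxes are shown first, for the members that had a promoter window. RefSeq promoter windows (build GRCm38.p6, from 250 bases before to 50 bases after a gene's start) were matched by symbol for 7 of the 10 genes. H2-Ab1, Cd74 and Ciita had no entry. In 6 of the 7, the letters TGATTGG, the reverse complement of the CCAAT motif of the Y box, followed the letters AAC of an X-box-like stretch at a distance of 25 to 31 bases. The stretches of 55 bases that hold both are printed 5′ to 3′ on the strand of the gene, with the 5 letters that end in AAC and the letters TGATTGG in capitals.
H2-Aa: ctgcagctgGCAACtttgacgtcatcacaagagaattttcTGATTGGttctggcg
H2-Eb1: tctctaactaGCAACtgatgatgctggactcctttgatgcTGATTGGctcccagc
H2-DMb1: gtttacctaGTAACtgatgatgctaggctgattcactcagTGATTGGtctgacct
H2-DMb2: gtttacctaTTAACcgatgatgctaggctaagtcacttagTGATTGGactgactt
H2-Oa: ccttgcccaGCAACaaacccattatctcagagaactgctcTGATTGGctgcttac
H2-Ob: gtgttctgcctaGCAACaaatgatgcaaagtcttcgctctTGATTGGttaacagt

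These stretches lie at chr17:34287859-34287913 (minus strand) for H2-Aa and, on the plus strand, at chr17:34305766-34305820 for H2-Eb1, chr17:34153088-34153142 for H2-DMb1, chr17:34145117-34145171 for H2-DMb2, chr17:34092294-34092348 for H2-Oa and chr17:34238806-34238860 for H2-Ob. The promoter windows have their own gene starts, which differ for some members from the GENCODE gene ranges given below. By those ranges, the stretches of H2-DMb1 and H2-DMb2 lie after the gene start, and that of H2-Oa spans it. The distance from AAC to TGATTGG was 29 bases in H2-Aa, H2-DMb1, H2-DMb2 and H2-Oa, 28 in H2-Eb1 and 26 in H2-Ob. Searched on both strands, this spacing of AAC and TGATTGG was held by 0.721% of 32851 promoter windows, and TGATTGG alone by 7.82%. CCAAT, which overlaps TGATTGG on the other strand, was found in 7 of 7 members and in 37.4% of all windows, and GCAAC in 5 of 7 and in 35.2%. GCAAC followed by ATTGG starting 15 to 50 bases further on was found in 4 of 7 members (H2-Aa, H2-Eb1, H2-Oa and H2-Ob) and in 1.58% of windows. TGACG, the core of a CREB site, was found in 1 member, H2-Aa, and in 20.8% of windows. The search for AAC before TGATTGG was added after the promoter letters had been seen, and a match is a description of letters, not a site.

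The class II genes were lower in tuft-like mTEC across the roles of the pathway, from the peptide-presenting chains and the invariant chain to H2-Oa, H2-DMa, H2-DMb2 and the transactivator Ciita. Of the 10 genes, 8 were called lower and 0 higher by edgeR's quasi-likelihood test at a false discovery rate (FDR) of 0.05, where 0.951% of the 32496 genes tested were called lower, 1.16% higher and 2.11% in either direction. At an unadjusted p under 0.05, and by DESeq2, limma voom and edgeR's likelihood ratio and exact tests, the count higher was also 0. In 9 of the 10, all 3 tuft-like libraries lay below all 3 non-tuft-like libraries, against 8.85% of all genes tested, and in none did they lie above, against 7.18%. The median log2 fold change of the 10 genes was -2.25, and that of all genes tested was 0.02. H2-DMb1 was the member whose libraries overlapped, and H2-Ob was the other member that was not called. H2-Ob was called by DESeq2 and by edgeR's likelihood ratio and exact tests, which each called 9 of the 10 lower, and by edgeR's quasi-likelihood test without a filter on low counts. Together the 10 genes took 1.69% to 1.86% of gene counts in the non-tuft-like libraries and 0.298% to 0.436% in the tuft-like libraries. In bulk RNA, fewer cells with class II transcripts and fewer such transcripts per cell cannot be told apart.

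**Figure D1:**
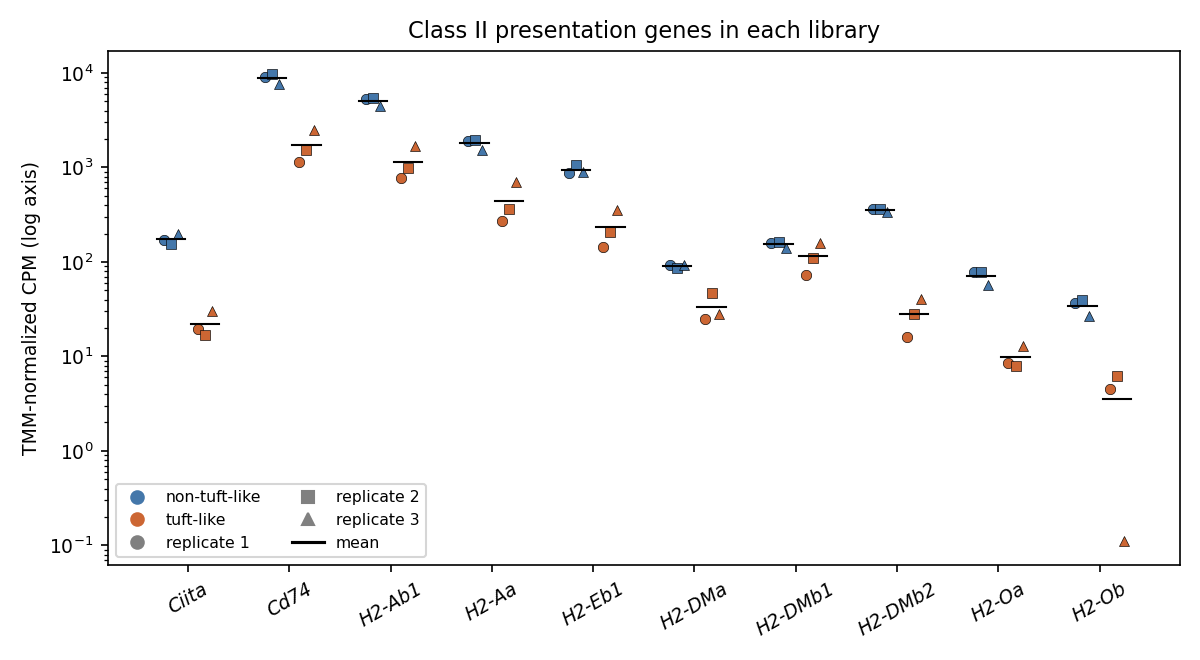
TMM-normalized CPM (log axis) of the 10 class II genes in each of the 3 non-tuft-like (blue) and 3 tuft-like (orange) libraries, with symbols for the replicate and a line at each mean. The groups are apart in every gene but H2-DMb1, and H2-Ob in tuft-like replicate 3 sits at 0.110 CPM, which is 4 counts.

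The peptide-presenting chains were lower by a factor of about 4. Levels are TMM-normalized CPM, which are read counts put on one scale of library size. Each log2 fold change sets tuft-like mTEC over non-tuft-like mTEC, so that a negative value is a lower level in tuft-like mTEC, and is followed by its standard error (SE). H2-Ab1, the beta chain of I-A (chr17:34257689-34269419), had 5314, 5468 and 4432 CPM in the 3 non-tuft-like libraries and 765.1, 983.1 and 1703 CPM in the tuft-like libraries, both in the order of replicates 1, 2 and 3, which is kept throughout. H2-Aa, its alpha chain (chr17:34282744-34287823), stood at 1883, 1974 and 1522 CPM in the non-tuft-like and at 274.5, 365.5 and 693.7 CPM in the tuft-like libraries. H2-Eb1, the beta chain of I-E (chr17:34305867-34316674), stood at 874.1, 1049.8 and 894.4 CPM against 145.4, 206.6 and 353.2 CPM. The gene for the I-E alpha chain appears here only as the pseudogene H2-Ea-ps, so H2-Eb1 transcripts do not show that I-E was made. In all 3 genes replicate 3 was the highest tuft-like library and replicate 1 the lowest, and the groups did not overlap.

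For H2-Ab1 the log2 fold change was -2.14 ± 0.45 (SE), with an adjusted p of 0.0400 by edgeR's quasi-likelihood test with Benjamini-Hochberg adjustment over all genes. It was -2.01 ± 0.42 for H2-Aa (edgeR, adjusted p = 0.0372) and -1.999 ± 0.38 for H2-Eb1 (edgeR, adjusted p = 0.0243). The means of H2-Ab1 were 5072 ± 559 CPM (SD, n = 3) and 1150 ± 491 CPM (SD, n = 3), so that the tuft-like level was 22.7% of the non-tuft-like level, and it was 24.8% for H2-Aa and 25.02% for H2-Eb1. The ratio of H2-Ab1 to H2-Aa counts within a library was 2.77 to 2.91 in the non-tuft-like and 2.45 to 2.79 in the tuft-like libraries, which overlapped. These calls were not kept when single libraries were left out, and the adjusted p of H2-Ab1 by edgeR was then 0.180 without non-tuft-like replicate 1, 0.263 without replicate 2, 0.0503 without tuft-like replicate 1 and 0.437 without tuft-like replicate 2. H2-Aa lost its call without the same 4 libraries, and H2-Eb1 without non-tuft-like replicates 1 or 2 or tuft-like replicate 2, with adjusted p of at most 0.315 and 0.189 (edgeR). Offsets for length and GC content, described at the end, were fitted over all genes or over genes of at least 10 CPM. Under the first, the 3 estimates were smaller, at -1.63 for H2-Ab1, -1.27 for H2-Aa and -1.20 for H2-Eb1, and were not called. Under the second, they were -2.15 for H2-Ab1, -2.06 for H2-Aa and -1.997 for H2-Eb1, and all 3 were called.

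Cd74 encodes the invariant chain, the chaperone of class II assembly, and was the most abundant member per exon length in both populations. It lies on chr18:60803848-60812652. Its level was 9021, 9726 and 7715 CPM in the non-tuft-like and 1148, 1523 and 2512 CPM in the tuft-like libraries, without overlap. This was a log2 fold change of -2.35 ± 0.49 (SE; edgeR, adjusted p = 0.0372), which left 19.6% of the non-tuft-like mean. Cd74 lost its call without non-tuft-like replicates 1 or 2 or tuft-like replicate 2, with adjusted p of 0.192, 0.282 and 0.466 by edgeR.

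Within a library, Cd74 counts were 1.12 to 1.15 times the summed counts of H2-Aa, H2-Ab1 and H2-Eb1 in the non-tuft-like libraries and 0.913 to 0.979 times in the tuft-like libraries. The difference in this ratio was -0.24 on the log2 scale, against -2.35 for Cd74 itself, and the ranges did not overlap. As a single value, the summed level of H2-Aa, H2-Ab1, H2-Eb1 and Cd74 was 17093, 18218 and 14564 CPM in the non-tuft-like and 2333, 3078 and 5261 CPM in the tuft-like libraries. It was lower in 3 of 3 tuft-like libraries, with a difference of -2.30 on the log2 scale and an exact two-sided permutation p of 0.10, the smallest that 3 libraries against 3 can give.

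The levels of presenting chains and the invariant chain in the tuft-like libraries ran opposite to the share of reads assigned to no gene, which was 61.6%, 47.6% and 19.7% in replicates 1, 2 and 3. The part of this share in the spread was not tested. Between the groups the share overlapped.

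H2-DM catalyses peptide exchange and is a dimer of an alpha chain, H2-DMa, with a beta chain from either of a pair of neighbouring genes, H2-DMb1 and H2-DMb2. The beta chain genes did not move alike. H2-DMb2 (chr17:34143307-34151555) stood at 360.2, 366.3 and 339.6 CPM in the non-tuft-like libraries and at 16.03, 28.1 and 40.6 CPM in the tuft-like libraries. Its lowest non-tuft-like library was 8.36 times its highest tuft-like library. The log2 fold change of -3.65 ± 0.38 (SE; edgeR, adjusted p = 0.000886) left 7.95% of the non-tuft-like mean. This call held when any single library was left out, with adjusted p of at most 0.00603 by edgeR.

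H2-DMb1 (chr17:34153072-34160230) stood at 157.0, 162.0 and 140.4 CPM in the non-tuft-like libraries and at 72.6, 111.2 and 159.7 CPM in the tuft-like libraries. Tuft-like replicate 3 lay within the range of the non-tuft-like libraries. Its log2 fold change was -0.42 (95% interval -1.04 to 0.21; edgeR, adjusted p = 0.99999). The interval includes 0.

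The pair changed places in abundance. H2-DMb2 counts were 2.29, 2.26 and 2.42 times those of H2-DMb1 in the non-tuft-like libraries and 0.221, 0.252 and 0.254 times in the tuft-like libraries. H2-DMb1 thus made up 29.2% to 30.7% of the counts of both genes in non-tuft-like mTEC and 79.7% to 81.9% in tuft-like mTEC. The ratio was 9.60-fold lower in tuft-like mTEC. A ratio within a library does not depend on scaling between libraries. This comparison of the pair was chosen after the values had been seen and is given without a test.

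The reading frames of H2-DMb1 and H2-DMb2 are 786 bases each and are equal at 754 positions (95.9%). Of the 50-base words of the H2-DMb1 transcripts, 22.7% also occurred in H2-DMb2, so reads that fall there could have been assigned to neither gene or to the wrong one, and the absolute level of each gene is uncertain. The printed promoter stretches of the pair were equal at 48 of 55 positions. Counted from 1 at the 5′ end of the stretch, with the H2-DMb1 base first, the differences were G10T, T15C, G30A, T32G, C38T, T48A and C54T. G10T lies in the capitals GTAAC of H2-DMb1, and TGATTGG is the same in both genes.

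H2-DMa (chr17:34119541-34139101) stood at 93.0, 85.5 and 93.2 CPM in the non-tuft-like libraries and at 24.8, 47.4 and 27.98 CPM in the tuft-like libraries. The groups did not overlap, and among the tuft-like libraries replicate 2 was the highest here. Its log2 fold change was -1.44 ± 0.32 (SE; edgeR, adjusted p = 0.0491). It was called in 1 of the 6 fits that leave out a library, and the adjusted p by edgeR was 0.134, 0.166 and 0.115 without non-tuft-like replicates 1, 2 and 3 and 0.111 and 0.0861 without tuft-like replicates 1 and 3. Its exons share 360 bases with Brd2 on the opposite strand. Whether counting used strand is not given in the sources used here, so reads of overlapping exons cannot be told apart. Brd2 had a log2 fold change of -0.29.

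Summed over H2-DMa, H2-DMb1 and H2-DMb2, H2-DM counts were 0.0723 to 0.0837 of those of the 3 presenting chains in the non-tuft-like libraries and 0.0830 to 0.1201 in the tuft-like libraries. These ranges overlapped, with an exact two-sided permutation p of 0.20. The mean log2 ratios differed by 0.35 with SDs of 0.11 and 0.27 (n = 3 each). With counts divided by exon length the difference was 0.34, the ranges did not overlap and the exact permutation p was 0.10, the smallest possible.

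H2-O, which restrains H2-DM and is otherwise best known from B cells, is made of an alpha and a beta chain. H2-Oa, the alpha chain (chr17:34092340-34095234), stood at 79.2, 77.8 and 57.4 CPM in the non-tuft-like libraries and at 8.51, 7.86 and 13.0 CPM in the tuft-like libraries. The log2 fold change of -2.87 ± 0.35 (SE; edgeR, adjusted p = 0.00197) left 13.7% of the non-tuft-like mean. The call held when any single library was left out, with adjusted p of at most 0.0114 by edgeR. A stretch of 321 exon bases is shared with BC051537 on the other strand, which had a mean of 1.37 CPM in the non-tuft-like libraries.

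H2-Ob, the beta chain (chr17:34238903-34254414), stood at 36.9, 39.8 and 27.0 CPM in the non-tuft-like libraries and at 4.50, 6.14 and 0.110 CPM in the tuft-like libraries. All tuft-like libraries were lower, but they spread over a wide range, and replicate 3 held 4 counts. The log2 fold change was -3.27 ± 0.99 (SE; edgeR, adjusted p = 0.183), and without tuft-like replicate 3 the adjusted p by edgeR was 0.00905. The ratio of H2-O to H2-DM counts was 0.190, 0.192 and 0.147 in the non-tuft-like libraries and 0.115, 0.0750 and 0.0572 in the tuft-like libraries. It was lower in 3 of 3 tuft-like libraries (log2 difference -1.15), with an exact two-sided permutation p of 0.10.

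**Figure D2:**
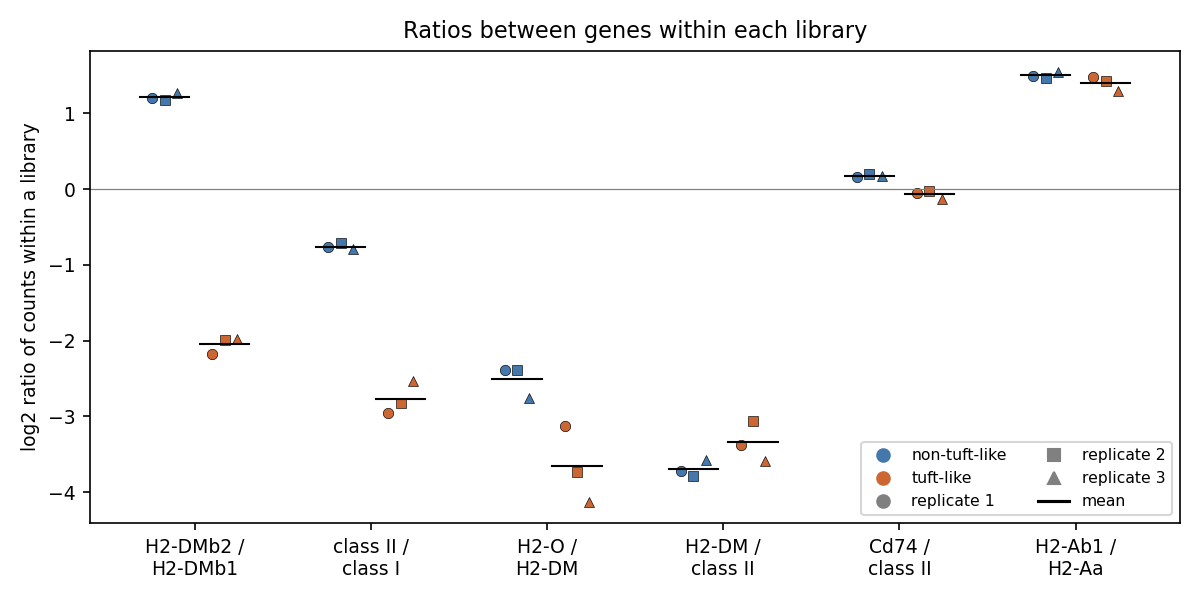
Log2 ratios of counts within each library for pairs of genes or gene sums, where class II stands for H2-Aa, H2-Ab1 and H2-Eb1, class I for H2-K1, H2-D1 and B2m, H2-DM for H2-DMa, H2-DMb1 and H2-DMb2, and H2-O for H2-Oa and H2-Ob, with lines at group means. The ratio of H2-DMb2 to H2-DMb1 is above 0 in the non-tuft-like (blue) and below 0 in the tuft-like (orange) libraries, and the ratios of H2-DM to class II and of H2-Ab1 to H2-Aa overlap.

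Ciita, the transactivator of the class II genes, lies on chromosome 16 (chr16:10480059-10528418). It stood at 169.8, 154.7 and 198.9 CPM in the non-tuft-like libraries and at 19.5, 16.7 and 30.6 CPM in the tuft-like libraries. The groups were apart by 5.05-fold between the nearest libraries. The log2 fold change was -2.97 ± 0.32 (SE; edgeR, adjusted p = 0.00114), and the call held when any single library was left out, with adjusted p of at most 0.00712 by edgeR. Ciita shares 329 exon bases with Dexi on the other strand, whose mean was 8.80 CPM in the non-tuft-like and 7.42 CPM in the tuft-like libraries. The ratio of Ciita to the summed counts of the presenting chains was 0.0182 to 0.0290 in the non-tuft-like and 0.0107 to 0.0165 in the tuft-like libraries, a log2 difference of -0.83 without overlap that is given without a test, and which takes all Ciita counts as signal.

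The level of each gene was also set against counts outside expressed genes, taken as the 99th percentile of counts per exon length over 1134 olfactory receptor genes in the same library. All 10 class II genes were above it in all 3 non-tuft-like libraries, and 8 of the 10 were above it in all 3 tuft-like libraries. The exceptions were H2-Ob, which was at 0.304, 0.566 and 0.0165 times this level, and Ciita, at 0.745, 0.866 and 2.58 times. In tuft-like replicates 1 and 2 the counts of Ciita were by this measure within the range seen for olfactory receptor genes, and not distinguishable from background. The measure depends on the length used, which was all exons, at 9535 bases for Ciita. Its principal transcript has 6007 bases, and a shorter length gives a higher value. Against the mean olfactory receptor level, Ciita stood at 3.27, 4.81 and 45.8 times in the tuft-like libraries. The fold change and ratio of Ciita therefore rest on a tuft-like level that may hold background, and after subtraction of the mean olfactory receptor level its log2 fold change was -3.23 (edgeR, adjusted p = 0.000511).

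**Figure D3:**
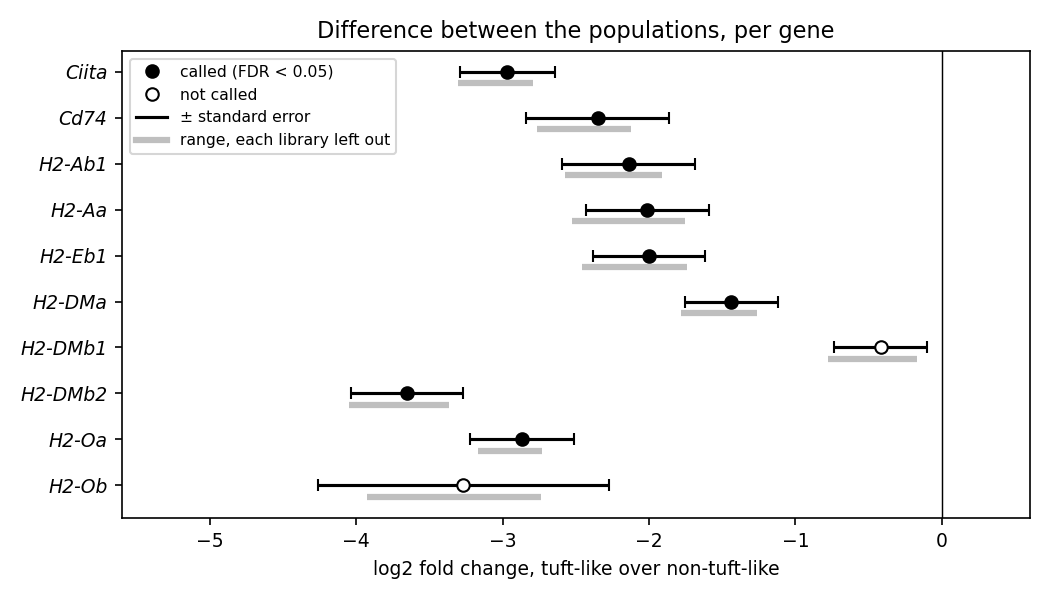
Log2 fold change of each class II gene, tuft-like over non-tuft-like, from edgeR's quasi-likelihood fit with its standard error, where filled points were called at an FDR of 0.05, and grey bars give the range of the estimate when each library is left out in turn. All 10 estimates are below 0 in every one of these fits, from -3.65 for H2-DMb2 to -0.42 for H2-DMb1 with all libraries.

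Per kilobase of exon, Cd74 (5254 CPM per kb) and H2-Ab1 (1975 CPM per kb) led in the non-tuft-like libraries and H2-Ob (6.42 CPM per kb) was the lowest. The order of H2-Eb1 and H2-Aa depended on the length used, with 483 and 472 CPM per kb of all exons but 563 and 1590 CPM per kb of the principal transcript. In the tuft-like libraries H2-DMb1 (68.1 CPM per kb of all exons) stood above H2-DMb2 (16.2 CPM per kb), whereas in the non-tuft-like libraries H2-DMb2 (203 CPM per kb) stood above H2-DMb1 (91.1 CPM per kb). Over the 6 libraries, log2 CPM of H2-Ab1 followed that of Cd74 (Pearson's r = 0.999), H2-Aa (0.998) and H2-Eb1 (0.996), and least closely that of H2-Ob (0.735) and H2-DMb1 (0.799). These 6 points share the grouping into populations and the library scaling, and the values are a description. Similar patterns were sought among 11593 genes that averaged 10 CPM or more, and the 10 members, which are part of that number, were left out of the ranking. Stat3, Ano9, Gsta2, Adm and Tpm2 had the patterns most like that of H2-Ab1 (r of 0.996 to 0.998), and Klk7, Cd52, Mpzl2, Zfp36l1 and Glrx those most like that of Ciita (r of 0.994 to 0.996).

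Of the 10 genes, 8 lie in the class II region of chromosome 17, which spans 224.3 kb from the start of H2-Oa to the end of H2-Eb1. Between them lie 7 other tested genes, which allowed a comparison with neighbours on the same chromosome segment. Of the 8 class II genes, 6 were called lower. Of the 7 other genes 0 were called by edgeR's quasi-likelihood test, while 1, Tap1, had an unadjusted p under 0.05 and was called lower by DESeq2, limma voom and edgeR's likelihood ratio and exact tests. The 5 coding ones, the chromatin reader Brd2, the immunoproteasome genes Psmb8 and Psmb9 and the peptide transporter genes Tap1 and Tap2, had log2 fold changes of -1.13 to -0.28. All 7 estimates were below 0. In Tap1 and the non-coding Gm15821 and Gm20513, all tuft-like libraries lay below all non-tuft-like libraries, against 8.85% of all genes tested. The non-tuft-like means of Gm15821 and Gm20513 were only 2.84 and 3.06 CPM. The difference between the sets of genes was not tested. Of other class II genes outside these 10, H2-Eb2 had a log2 fold change of -1.47 (edgeR, adjusted p = 0.236), and the pseudogene H2-Ea-ps had no more than 3.43 CPM in any library.

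**Figure D4:**
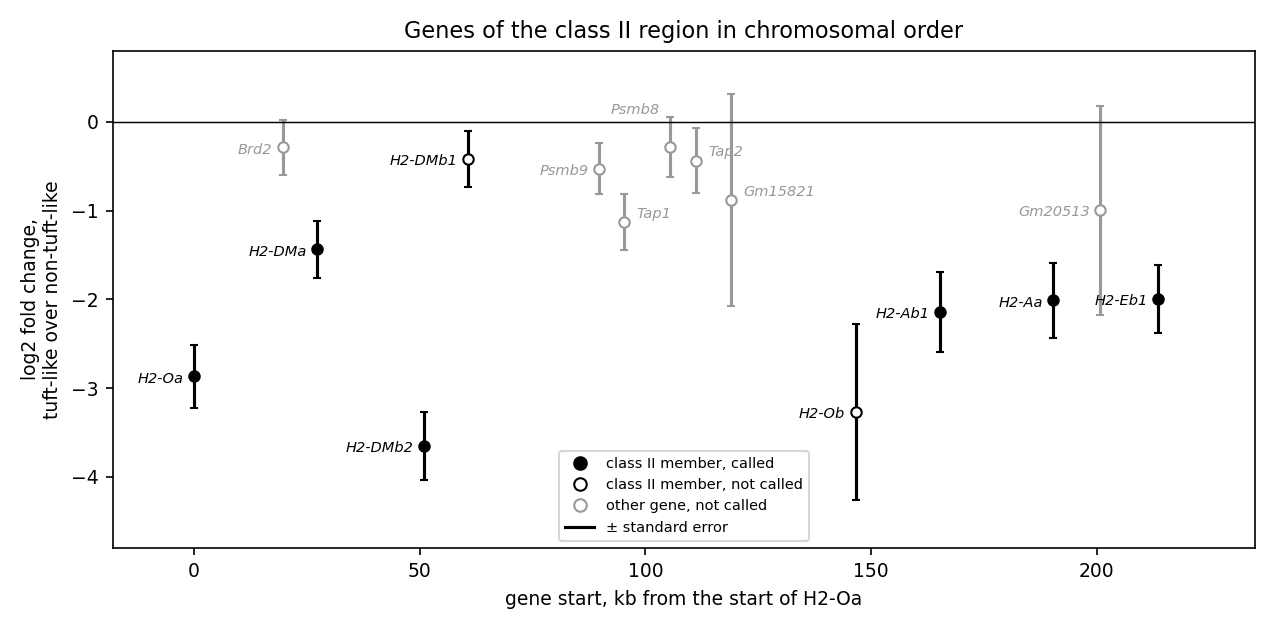
Log2 fold change with its standard error of each tested gene between the start of H2-Oa and the end of H2-Eb1, by the distance of its start from that of H2-Oa in kb. Class II genes (black) are at or below -1.44 except H2-DMb1, and the 7 other genes (grey, none called) are between -1.13 and -0.28.

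The genes that act with the class II genes were described by lists. The factors that bind class II promoters (Rfx5, Rfxap and Rfxank of the RFX complex on the X box, Nfya, Nfyb and Nfyc on the Y box, and Creb1) held 0 calls in either direction among 7 by edgeR and 0 by DESeq2, 0 of them had an unadjusted p under 0.05, and their median was 0.14 on the log2 scale. In the list from interferon gamma to Ciita, 2 of 10 tested genes were called lower and 0 higher, and the median was -0.47. At an unadjusted p under 0.05, 4 were lower, with Ifngr1 (-0.85) and Ifngr2 (-0.66), the chains of the interferon gamma receptor, beside the 2 that were called. These 2 were Prdm1, known as a repressor of Ciita, at -3.40 ± 0.48 (SE; edgeR, adjusted p = 0.00427), and Irf8, an interferon-regulated transcription factor, at -1.39 ± 0.29 (SE; edgeR, adjusted p = 0.0334). Ifng itself had 0 counts in all 6 libraries.

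Of 10 genes for proteases and related enzymes of endosomal processing, 2 were called lower and 0 higher, with a median of -1.04, while 7 had an unadjusted p under 0.05 and DESeq2 called 6, all lower. Ctsl encodes cathepsin L, which trims the invariant chain in thymic epithelium, and stood at 274, 647 and 629 CPM in the non-tuft-like and 88.5, 130.0 and 175.6 CPM in the tuft-like libraries. Its log2 fold change was -1.98 ± 0.41 (SE; edgeR, adjusted p = 0.0358), and 1742 of its exon bases lie opposite another gene. Ctsh, another cathepsin, was at -1.84 ± 0.36 (SE; edgeR, adjusted p = 0.0278). Ctss, the cathepsin that trims the invariant chain in dendritic and B cells, was at -0.98 (edgeR, adjusted p = 0.191). The calls of Irf8, Ctsl and Ctsh were lost in 5, 4 and 3 of the 6 fits without single libraries, with adjusted p by edgeR of up to 0.207, 0.176 and 0.15002. Genes of class II trafficking and turnover held 0 calls among 8 by edgeR, with a median of -0.22. One of them, Cd63, had an unadjusted p under 0.05 and was called lower by DESeq2.

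Class I presentation served as the comparison within the cell. Of 12 class I genes, 1 was called lower and 0 higher, with a median of -0.48, while 3 were lower at an unadjusted p under 0.05 and DESeq2, limma voom and edgeR's likelihood ratio and exact tests each called 2 lower. The gene called was Nlrc5, the class I counterpart of Ciita, at 120.6, 155.0 and 132.1 CPM in the non-tuft-like and 59.8, 49.96 and 56.5 CPM in the tuft-like libraries. Its log2 fold change was -1.29 ± 0.26 (SE; edgeR, adjusted p = 0.0301). The call was lost without any of the non-tuft-like libraries or tuft-like replicate 2, with adjusted p by edgeR of up to 0.234. The class I heavy chain genes H2-K1 and H2-D1 and the light chain gene B2m were at -0.43, 0.14 and -0.52 and were not called.

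The ratio of class II counts (H2-Aa, H2-Ab1 and H2-Eb1) to class I counts (H2-K1, H2-D1 and B2m) was 0.588, 0.609 and 0.576 in the non-tuft-like libraries and 0.129, 0.141 and 0.172 in the tuft-like libraries. It was lower in 3 of 3 tuft-like libraries by 4.04-fold (log2 difference -2.02), and the exact two-sided permutation p was 0.10. H2-K1 and H2-D1 are near-identical over long stretches, so their separate values are uncertain and the ratio used their sum.

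Among 6 costimulatory genes, 2 were called lower and 0 higher, with a median of -1.30. Icosl, the ligand of ICOS on T cells, was at -3.19 ± 0.33 (SE; edgeR, adjusted p = 0.000898), and Cd40, a receptor that signals maturation in antigen-presenting cells, was at -3.61 ± 0.49 (SE; edgeR, adjusted p = 0.00352). Cd80, whose protein was part of the gate, was at 9.12 to 18.9 CPM in the non-tuft-like and 0.138 to 3.92 CPM in the tuft-like libraries (edgeR, adjusted p = 0.557).

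**Figure D5:**
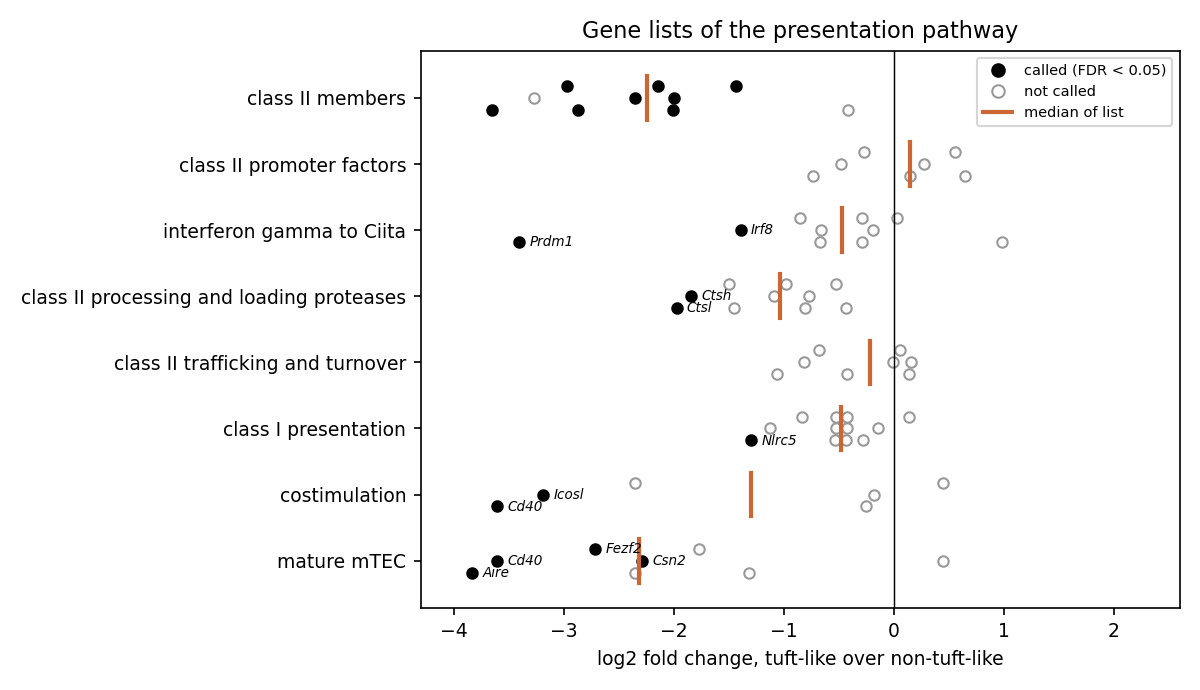
Log2 fold change of each tested gene in the lists of the presentation pathway and of mature mTEC, with called genes filled (FDR under 0.05) and named outside the class II row and the list median as a line. The class II genes have a median of -2.25 and the mature mTEC genes of -2.32, and the promoter factors, class I genes and trafficking genes have medians of 0.14, -0.48 and -0.22.

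Markers of other cells were examined because class II transcripts are abundant in mature mTEC and in haematopoietic antigen-presenting cells. Of 8 genes of mature mTEC, 4 were called lower (Aire, Cd40, Fezf2 and Csn2) and 0 higher, with a median of -2.32. Cd86 had an estimate of the other sign (log2 fold change 0.44, not called), with means of 3.52 against 4.80 CPM. The call of Csn2 was lost without non-tuft-like replicates 1 or 2 or tuft-like replicates 1 or 3. Cd40, Cd80 and Cd86 are also in the costimulatory list, so the lists are not separate. The summed level of the 8 genes was 694 to 835 CPM in the non-tuft-like and 103 to 123 CPM in the tuft-like libraries. Their part in the difference of the class II genes was not tested. Of 9 dendritic cell markers 0 were called by edgeR, 0 by DESeq2 and 0 had an unadjusted p under 0.05, with a median of -0.08 and summed levels of 50.5 to 61.8 CPM against 34.0 to 63.4 CPM, and Itgax, Clec9a, Siglech, Ccr7 and Cd209a had 0 counts in tuft-like replicate 3. Of 7 B cell markers, 1 was called, Cd79b, which was higher in tuft-like mTEC (log2 fold change 3.20), with 5.28 to 11.4 CPM against 47.9 to 101.5 CPM. Fcer2a had a log2 fold change of -3.54 (edgeR, adjusted p = 0.380), with an unadjusted p under 0.05, and was called lower by DESeq2. The B cell list had a median of -0.17 and summed levels of 35.9 to 47.5 CPM against 73.1 to 104 CPM, most of it from Cd79b in the tuft-like libraries. Of 9 macrophage markers, 1 was called, Cd68, which was lower (log2 fold change -3.30). The summed levels were 217 to 352 CPM against 128 to 190 CPM, most of it from Lyz2 (means 223 and 145 CPM). Of the 4 pan-leukocyte markers 0 were called by edgeR, 0 by DESeq2 and 0 had an unadjusted p under 0.05. Their summed levels were 358 to 479 CPM against 275 to 366 CPM, most of it from Laptm5 (means 414 and 292 CPM). Ptprc had an estimate of the other sign (log2 fold change 1.42), with means of 8.68 and 23.2 CPM. The same 3 counts were 0 for the 7 tested thymocyte markers, with a median of -0.66 and summed levels of 19.1 to 31.7 CPM against 6.24 to 32.4 CPM. The part of haematopoietic cells in the class II counts was not tested.

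The calls of the presenting chains, Cd74 and H2-DMa by edgeR's quasi-likelihood test lay near the threshold. Of 13 alternative settings with all libraries, 11 called each presenting chain and Cd74, and 10 called H2-DMa. With the replicate number as a block 4 of the 10 genes were called (H2-DMb2, H2-Oa, H2-Ob and Ciita). The estimates of the genes that lost their call under the block stayed as large (H2-Aa -2.12, Cd74 -2.43). With a correction for length and GC content of genes, fitted as an offset over all genes, which moved the median of all genes to 0.18 and was added after the data had been seen, 0 of 10 were called and H2-DMb1 changed sign to 0.24, while the log2 fold changes of the other 9 were between -3.55 and -1.08. With the same offset fitted over genes of at least 10 CPM, 7 of 10 were called.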

How the data were processed

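RNA of 3 tuft-like and 3 non-tuft-like libraries had been prepared by the submitters with the SMARTer Ultra Low Input RNA Kit. Per the submitters' processing notes the tools were Trimmomatic 0.36, STAR 2.7.3a and HTSeq with build mm10. The authors deposited the resulting whole-number read counts per gene without normalization. Strand setting and annotation release are not given in the sources used here. The table also held 92 ERCC rows, all at 0, and 5 summary rows, and both were left out of library sizes and tests.

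Gene symbols were taken from GENCODE release M21 (mm10) for 99.7% of 52636 gene rows. After filterByExpr (minimum count 10 and minimum total 15) and TMM normalization, genes were tested with edgeR 4.0.16 in R 4.3.3 with glmQLFit and glmQLFTest over all 6 libraries without covariates. Adjusted p are Benjamini-Hochberg values over all 32496 genes tested. Standard errors were approximated from the log2 fold change and the F statistic, and 95% intervals are 1.96 standard errors to either side. The common biological coefficient of variation was 1.10. The procedure was tested on simulated data. Ratios were tested by exact permutation of libraries. Log2 CPM used 1 as an added constant for correlations.

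The 10 genes and all gene lists were chosen with earlier results of these data known. Named genes are the 10 members, members of the lists, and for H2-Ab1 and Ciita the 5 other genes with the highest correlation. Brd2, Dexi and BC051537 were named for their overlap, and neighbours for their position. Values of some list genes are not reported here. Alternatives were 11 planned settings (RLE factors, library size only, other filters, DESeq2 1.42.0, the likelihood ratio and exact tests, limma 3.58.1 voom, the replicate block and background subtraction), each library left out, and 2 offsets added later. No pair of libraries shared more than 1.36% of equal values. The other data types of the study were not used here.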

Additional observations from a re-analysis of the deposited data

Results flagged for a closer look

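Reads that were assigned to no gene are outside the gene counts used above. Their share of the table was highest in tuft-like replicate 1, at 61.6%, against 34.4% to 52.5% in the non-tuft-like libraries, and tuft-like replicate 3 had the lowest share of all 6, at 19.7%. The members' share of gene counts was 0.298% in tuft-like replicate 1 and 0.436% in tuft-like replicate 3.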

How the results depend on the processing

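Across 19 settings and 10 genes, 150 of 190 estimates kept their direction and their side of the threshold, 33 lost the call, 6 gained it and 1 changed sign (H2-DMb1, 0.24 with the length and GC offset over all genes). The number of class II genes called was 3 to 8 when single libraries were left out (3 without either of non-tuft-like replicates 1 and 2, 5 without tuft-like replicate 1, 4 without tuft-like replicate 2), 4 with the replicate block and 0 with the offset over all genes. In each of these fits but the last, H2-DMb2, H2-Oa and Ciita were called. Fits without a library hold fewer samples. For the block and the offset the cause was not tested. The number of all genes called was 687, and 1045 by library size only, 1127 without a filter, 1533 at 10 CPM or more, 1904 by DESeq2, 1236 by the likelihood ratio test, 1161 by the exact test, 1057 after background subtraction, 158 and 1149 with the offsets over all genes and over genes of 10 CPM, and 376 to 922 without single libraries. Higher calls made up 55.0% of all calls, but 77.2% with the offset over all genes and 33.6% without tuft-like replicate 3. Deviations from the group means, compared between libraries of the same replicate number, had correlations of -0.156, -0.061 and -0.326. With 3 libraries per group, these values cannot show whether replicate numbers pair the samples. The block called 737 genes. The summed level and the ratios of class II to class I, H2-DM to class II, H2-O to H2-DM and H2-DMb2 to H2-DMb1 kept their direction in the settings tried for them (other ratios were not varied), and no p for them can go below 0.10, or 0.20 with a library left out. H2-Ob held 4 counts in tuft-like replicate 3, a library of 45928255 gene counts, against 109 in tuft-like replicate 1, the library with the fewest.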
